A study of Mus musculus with 4 samples.

Results

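Nuclear-encoded genes of oxidative phosphorylation were followed through single nuclei of mouse liver, by respiratory complex, cell class, hepatocyte zone and library. Members were taken by gene symbol: symbols of Nduf followed by a, b, c, s or v and a number for complex I (assembly factors, Ndufaf, are not among them), the Sdh subunit genes for complex II, symbols that begin with Uqcr for complex III, Cox subunit symbols for complex IV and symbols that begin with Atp5 for complex V. Each had to hold at least 50 UMIs summed over the libraries, where a UMI (unique molecular identifier) marks 1 captured RNA molecule. Of 32285 genes in the matrices, 81 symbols matched and 75 became members: 37 of complex I, 4 of complex II, 8 of complex III, 9 of complex IV and 17 of complex V. Below the minimum lay Cox8c with 0 UMIs, Cox6a2 with 4, Cox8b with 12, Cox7b2 with 17, Cox6b2 with 32 and Cox7a1 with 48. The members nearest above it were Ndufa4l2 with 357 UMIs and Ndufs8 with 703. Ndufa4 was counted with complex I by its symbol, although its protein is now placed in complex IV. The subunit genes Cox4i1 and Ndufab1 and the cytochrome genes Cyc1 and Cycs do not match the symbols and were kept as a list of their own.

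The livers came from male wild-type C57BL6/J mice, an inbred laboratory strain, that were 2 months old (Young, 2 libraries) or 30 months old (Aged, 2 libraries). Nuclei were isolated from frozen tissue and profiled by droplet sequencing, so the counts hold mostly nuclear and partly unspliced RNA, together with RNA that floats free in the suspension. The labels do not say that the libraries of a group came from separate animals, so p-values measure the spread between these libraries, which may be technical. The study asks how liver nuclei of old mice differ from those of young mice.

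Oxidative phosphorylation takes place in the inner mitochondrial membrane. Complex I takes electrons from NADH, and complex II, which is also the succinate dehydrogenase of the citric acid cycle, takes them from succinate. Complex III passes electrons to cytochrome c, complex IV hands them to oxygen, and complex V, the ATP synthase, uses the proton gradient built by the chain to make ATP. Most subunits are encoded in the nucleus and imported, while a smaller set is encoded by mitochondrial DNA, except in complex II, which has none of these. Hepatocytes are rich in mitochondria, and those near the portal vein are known for more oxidative metabolism than those near the central vein.

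Promoter sequence was available for 62 of the 75 members, in 67 windows of 300 bases (250 before and 50 after the annotated start; RefSeq, GRCm38.p6). Motifs of factors known to act on respiratory genes were searched as exact letters on both strands: the NRF1 core GCGCATGC, the ETS core CCGGAAG (the site class of GABP), the YY1 core AAGATGGC and the CCAAT box CCAAT. The NRF1 core was in 14.9% of member windows and in 2.71% of all 32851 windows of the table, the ETS core in 25.4% and 8.86%, the YY1 core in 13.4% and 2.75%, and the CCAAT box in 41.8% and 37.4%. Of the 9 members with the YY1 core, 7 belong to complex I. A match describes letters only. The stretches below lie before the start given by RefSeq, outside every exon of GENCODE, 5′ to 3′ in the direction of the gene, with matches in capitals. The Atp5g genes are shown because they encode the same c-ring subunit of complex V and had unlike age values, Uqcrh because it fell between zones, and Atp5e and Ndufa11 because they carry the ETS and NRF1 cores and were low in both aged libraries.
Atp5g1: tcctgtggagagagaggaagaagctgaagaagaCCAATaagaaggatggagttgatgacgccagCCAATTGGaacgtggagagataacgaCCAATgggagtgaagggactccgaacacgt
Atp5g2: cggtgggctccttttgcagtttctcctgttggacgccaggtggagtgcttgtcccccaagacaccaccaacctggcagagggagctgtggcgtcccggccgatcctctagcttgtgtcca
Atp5g3: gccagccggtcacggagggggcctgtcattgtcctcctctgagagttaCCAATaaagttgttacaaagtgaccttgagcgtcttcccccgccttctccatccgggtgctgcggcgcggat
Atp5e: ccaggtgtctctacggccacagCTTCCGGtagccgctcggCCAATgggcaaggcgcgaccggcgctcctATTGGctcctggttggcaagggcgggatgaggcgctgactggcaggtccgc
Ndufa11: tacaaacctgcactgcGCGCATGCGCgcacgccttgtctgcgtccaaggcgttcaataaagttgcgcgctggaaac
Uqcrh: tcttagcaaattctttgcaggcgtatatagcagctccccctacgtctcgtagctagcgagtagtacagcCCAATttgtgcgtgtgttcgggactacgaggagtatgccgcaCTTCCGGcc
These lie at chr11:96075671-96075790 (minus strand), chr15:102671128-102671247 (minus), chr2:73911327-73911446 (minus), chr2:174464106-174464225 (minus), chr17:56717686-56717761 (plus) and chr4:116075072-116075191 (minus). Atp5g1 carried 4 CCAAT boxes, 126, 95, 92 and 69 bases before its start, of which the one at 92 is on the opposite strand and overlaps its neighbour. Atp5g3 carried 1 CCAAT box, at 72 bases. The Atp5g2 stretch held no match, and it lies inside the gene as GENCODE draws it (chr15:102662864-102672352), which starts further upstream. The Atp5g2 window as a whole holds the NRF1 core, outside the stretch shown. Atp5e carried the ETS core at 102 bases and CCAAT boxes at 84 and 55. Ndufa11 carried the NRF1 core on both strands of 1 palindromic stretch, at 60 and 58 bases, and Uqcrh a CCAAT box at 52 and the ETS core at 10.

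The libraries Young 1, Young 2, Aged 1 and Aged 2 differed in size and depth, which cannot be told apart from age with 2 libraries per group. They held 2666 to 14718 barcodes and 11799751 to 54777101 UMIs. After filters 33254 nuclei remained of 43013 barcodes. Hepatocyte-like nuclei numbered 1619, 9629, 5581 and 8565, with a median of 3810, 928, 2256 and 2980 UMIs. Their clusters each came almost entirely from 1 library, so the class was compared between libraries as a whole. Unnamed clusters took 0.614, 6.85, 8.14 and 1.51% of the kept nuclei, and 112 kept barcodes occurred in more than 1 library. The 12 hepatocyte markers summed to 17310 to 24110 CPM in hepatocyte-like nuclei, which were named by such markers. Endothelial and stellate markers were higher in the young hepatocyte-like nuclei. The 12 endothelial markers summed to 237 and 227 CPM against 93.5 and 73.8, and the 12 stellate markers to 208 and 203 against 46.0 and 58.6. No marker of either list was at 0. The 12 markers of T and NK cells went the other way, with 24.45 and 36.83 against 86.23 and 61.69 CPM. Those of macrophages overlapped, with 198.5 and 336.8 against 210.6 and 223.7 CPM. A list of 12 abundant hepatocyte transcripts, used as a rough measure of free and cytoplasmic RNA, gave 7690, 21420, 14760 and 10010 CPM. How far it reflects such RNA rather than expression in the nuclei was not tested. CPM, the usual depth-scaled count, takes the nuclear-encoded UMIs of the summed nuclei as its total, and scaled CPM is the same after TMM scaling in edgeR.

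In hepatocyte-like nuclei the members' share of nuclear-encoded UMIs was 0.279% (Young 1), 0.418% (Young 2), 0.247% (Aged 1) and 0.235% (Aged 2), or 15.8, 4.71, 7.77 and 9.25 UMIs per nucleus. Young 2 stood highest in every complex. Complex I summed to 1101 and 1524 CPM in Young against 943 and 921 in Aged, and complex V to 794 and 1258 against 703 and 646. Both aged libraries lay below both young libraries for these complexes. Complex III gave 280 and 506 against 234 and 241 CPM, again without overlap. Complex IV gave 364 and 589 against 373 and 289, and complex II gave 246 and 302 against 213 and 256. For these the groups overlapped, since Aged 1 exceeded Young 1 for complex IV and Aged 2 exceeded Young 1 for complex II. Over the 4 libraries complex I took 36.5 to 39.5% of member UMIs, complex II 7.22 to 10.9%, complex III 9.5 to 12.1%, complex IV 12.3 to 15.1% and complex V 27.5 to 30.1%. Spearman's rho of member CPM between pairs of libraries was 0.84 to 0.95 (n = 75 genes, which share depth and free RNA within a library and are not independent).

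**Figure D1:**
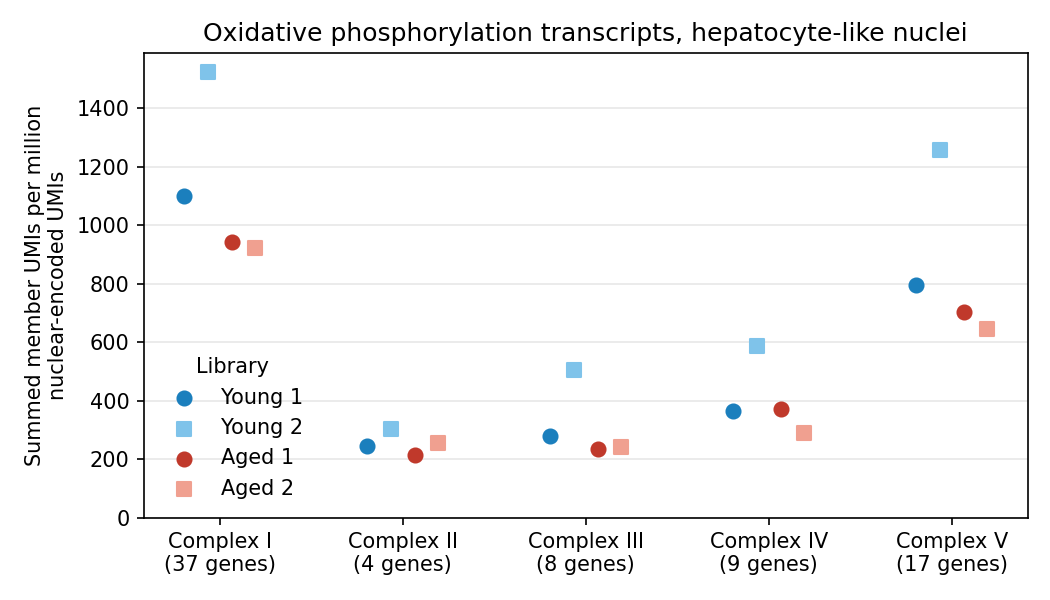
Summed UMIs of the members of each complex in CPM (y axis) in hepatocyte-like nuclei, 1 point per library. Young 2 is highest in every complex, and both aged libraries lie below both young libraries for complexes I, III and V but not for II and IV.

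The order of the members depended on whether CPM was divided by length (Spearman's rho of gene length and CPM 0.38, n = 75). Ndufs4, an accessory subunit of complex I, led with a mean of 146 CPM, but it spans 100 kb and held 1.45 CPM per kb of gene. Per kb of exon, the complex I subunit gene Ndufb3 was highest at 73.1 CPM per kb. Next came Cox7c at 68.9, Cox8a at 67.4 and Uqcr10 at 62.1 CPM per kb, all small subunits of complexes IV and III. Ndufa4l2, a paralogue of Ndufa4 known to respond to low oxygen, was lowest at 2.63 CPM per kb of exon. In CPM, the 3 leading genes of complex II were Sdha (the flavoprotein), Sdhc and Sdhb (the iron-sulfur subunit), those of complex III Uqcrc2, Uqcrq and Uqcrh, those of complex IV Cox7c, Cox7b and Cox6c, and those of complex V Atp5a1, Atp5c1 and Atp5b, which encode the alpha, gamma and beta subunits. In complex I Ndufs1 and Ndufs3, core subunits of the electron-transfer arm, followed Ndufs4. Of the 75 members, 25 overlap another annotated gene, among them Ndufs1, Ndufs3, Ndufa3, Ndufa11, Ndufb2, Ndufb5, Ndufa4l2, Cox6c, Atp5d, Atp5j and Atp5a1. Strand use in counting is not given in the sources used here, so their counts may hold reads of the neighbour.

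Hepatocyte zone gave the most calls within hepatocyte-like nuclei. In each library, hepatocyte-like nuclei were ranked by how strongly they expressed landmarks of the pericentral over the periportal zone, and equal numbers from both ends (539, 3209, 1860 and 2855 nuclei) were summed as pericentral and periportal parts. The landmarks were left out of the test. In edgeR's quasi-likelihood test with the library as a block, 32 of 75 members fell in the pericentral part (adjusted p under 0.05), against 9.90% of the 14096 genes tested. No member rose there, against 10.1% of all genes. Lower values in all 4 libraries were found for 51 members, against 18.9% of all genes. The median log2 difference, pericentral minus periportal, was -0.31 over the members and -0.02 over all genes. The number of members that fell was 10 of 37 in complex I, 3 of 4 in complex II, 4 of 8 in complex III, 6 of 9 in complex IV and 9 of 17 in complex V.

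In complex V, Atp5g1 (chr11:96068852-96075670, minus strand), a c-ring subunit gene, lay at 14.2, 30.2, 28.4 and 12.2 scaled CPM in the pericentral parts of Young 1, Young 2, Aged 1 and Aged 2, and at 21.8, 44.0, 32.1 and 24.4 in their periportal parts. It was lower in the pericentral part of every library, 21.2 ± 9.36 against 30.6 ± 9.96 (SD, n = 4), with a log2 difference of -0.58 (SE 0.14, edgeR adjusted p = 0.0141). In complex III, Uqcrh (chr4:116066965-116075071, minus strand), the hinge protein beside cytochrome c1, lay at 41.3, 53.0, 40.0 and 40.7 against 57.7, 72.8, 58.9 and 57.7 scaled CPM. Every pericentral value lay below every periportal value (log2 difference -0.50, SE 0.07, edgeR adjusted p = 0.000881). In complex IV, Cox7a2 lay at 45.8, 40.9, 32.6 and 24.4 against 72.0, 55.8, 45 and 33.2 scaled CPM (log2 difference -0.49, SE 0.08, edgeR adjusted p = 0.00156). Cox7b, like Cox7a2 a small structural subunit, lay at 61.1, 69.6, 52.4 and 34.3 against 105, 79.8, 62.6 and 55.1 (log2 difference -0.47, edgeR adjusted p = 0.0118). Both were lower in the pericentral part within every library, although the 2 parts overlapped across libraries. In complex II, Sdhd, a membrane anchor, lay at 26.8, 32.8, 15.5 and 12.8 against 31.8, 38.8, 22.2 and 21.9 scaled CPM and was lower in each library (log2 difference -0.47, edgeR adjusted p = 0.0202).

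Of the complex I genes, 5 had a point estimate above 0, and no member outside complex I did. Ndufs4 lay at 186, 107, 155 and 163 scaled CPM in the pericentral and 179, 109, 156 and 153 in the periportal part (log2 difference 0.03, SE 0.07, edgeR adjusted p = 0.835). Its libraries had no common direction. The others were Ndufb3 at 0.11, Ndufa6 at 0.02, Ndufv3 at 0.05 and Ndufa4l2 at 0.26, with edgeR adjusted p of 0.642, 0.944, 0.909 and 0.551, and they are named after their values were seen.

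**Figure D2:**
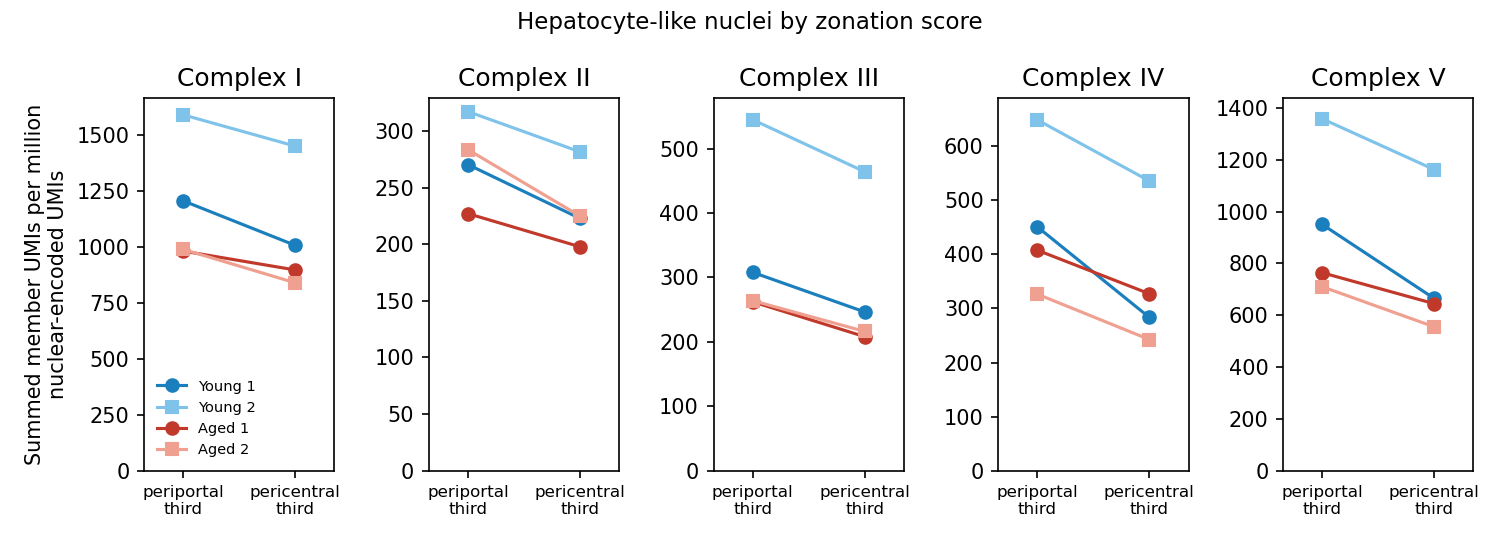
Summed UMIs of each complex in CPM (y axis, from 0) in the periportal and pericentral parts of hepatocyte-like nuclei, 1 line per library. Every line falls from the periportal to the pericentral part in every complex.

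Other measures moved with zone. The members summed to 2426, 3897, 2276 and 2079 CPM in the pericentral and 3188, 4463, 2644 and 2574 CPM in the periportal parts. The abundant hepatocyte transcripts summed to 6123, 18010, 10080 and 6531 against 10250, 24590, 18940 and 13190 CPM, and 9 of 12 of them fell in the pericentral part. The median share of mitochondrially encoded UMIs was 0.235, 0.505, 0.604 and 0.313% against 0.358, 0.622, 0.642 and 0.352%, and all 13 mitochondrially encoded genes fell (median log2 difference -0.82). The part of these in the members' difference was not tested. In nuclei with under 0.5% mitochondrial UMIs, 16 members fell (median -0.28), against 8.89% of all genes, and with at most 1% 19 fell, against 9.37%. Without Young 1, Young 2, Aged 1 or Aged 2 the count was 18, 18, 22 or 13, against 7.8, 7.75, 7.51 or 7.26% of all genes, and the calls of Atp5g1, Cox7b and Sdhd were each lost in some of these fits.

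Genes around the chain moved in both directions, and so did genes at large. In the same fit 9.90% of all 14096 genes fell in the pericentral part and 10.1% rose. The counts of the lists below were not tested against these shares. Of 7 tested subunit genes outside the symbol rule, Cycs (cytochrome c), Ndufab1 (an acyl carrier subunit) and Cox4i1 fell, with log2 differences of -0.60, -0.39 and -0.32. Of 51 tested assembly factor genes, which build the complexes without being part of them, 4 fell and 2 rose (median -0.08). Sco2, a copper chaperone of complex IV, lay at 43.9, 23.3, 12.4 and 15.4 scaled CPM pericentrally and 97.5, 32.3, 25.3 and 29.1 periportally (log2 difference -0.91, edgeR adjusted p = 0.000448), and Ndufaf6 rose by 0.51. Of 25 regulator genes, 4 fell and 3 rose. The coactivator gene Ppargc1a lay at 57.0, 39.0, 91.4 and 84.3 against 192, 72.4, 162 and 208 scaled CPM (log2 difference -1.18, edgeR adjusted p = 0.000255). Its relative Ppargc1b and the nuclear receptor gene Esrra also fell, by 0.84 and 0.59 on the log2 scale, with the mitochondrial transcription gene Tfb1m. In the other direction, Esrrg, a further receptor of the family, lay at 329, 323, 979 and 646 against 23.8, 41.5, 118 and 18.3 scaled CPM (log2 difference 3.71, edgeR adjusted p = 5.26e-05), and Ppara and Nfe2l2 rose by 0.76 and 0.37. Nrf1, whose protein binds the NRF1 core, differed by -0.11 and Gabpa by 0.09, with edgeR adjusted p of 0.394 and 0.485. Of 19 genes listed as citric acid cycle genes 4 rose (Idh2, Cs, Dlat and Pcx) and 4 fell (among them Suclg1, Pdhb and Ogdh), with a median of -0.12. This list also holds genes for the entry of pyruvate, such as Dlat, Pdhb and Pcx, which are not enzymes of the cycle itself.

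The zone difference was not shown to depend on age. In the same fit with a zone by age term, no member passed edgeR's test (no other tool was run), against 0.177% of all 14096 genes, and 1 member, Ndufa6, had an unadjusted p under 0.05. Its zone log2 differences were 0.14 and 0.30 in Young against -0.13 and -0.18 in Aged (change -0.40, SE 0.15, edgeR adjusted p = 0.624). The median change over the members was -0.03.

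With age, most members had lower point estimates in hepatocyte-like nuclei, but none passed the test. Of 75 members 66 were lower and 9 higher in the aged libraries, with a median log2 difference of -0.53, against -0.02 over all 15740 genes tested, of which 51.3% were lower. No member was called at an adjusted p under 0.05 by edgeR's quasi-likelihood test, and 0.0254% of all genes were. At an unadjusted p under 0.05 there were 19 members, all lower, against 20.2% of all genes in either direction, and DESeq2 called 1 member, against 6.85% of all genes. Both aged libraries lay below both young libraries for 44 members, against 27.2% of all genes, and above for 3, against 26.1%. By complex, 31 of 37 members of complex I were lower (median -0.53), 3 of 4 of complex II (-0.30), 8 of 8 of complex III (-0.82), 8 of 9 of complex IV (-0.64) and 16 of 17 of complex V (-0.41). Young 2 carried much of this: without it the median was -0.23, 50 members were lower, and 1 was called lower and 1 (Ndufb9) higher, against 13.1% of all genes called. Without Young 1 the median was -0.72 and 13 members were called lower, against 3.13% of all genes. The higher endothelial and stellate marker sums of the young hepatocyte-like nuclei given above move with the groups, and their part was not tested.

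**Figure D3:**
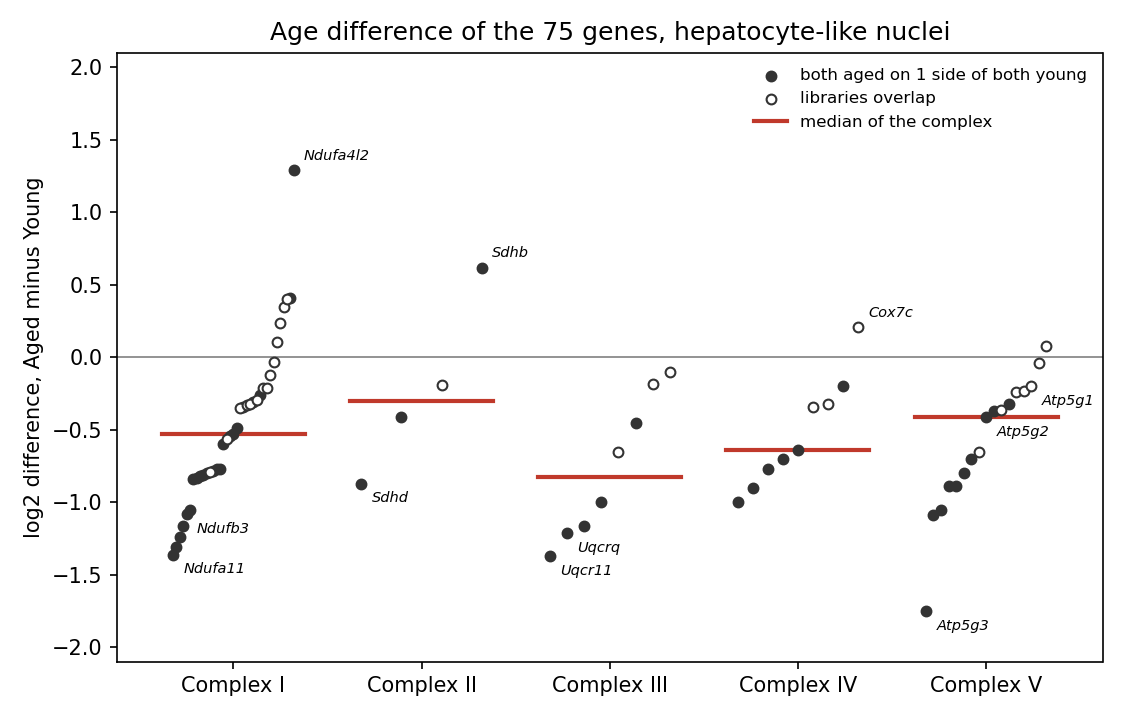
Log2 difference, Aged minus Young, of each of the 75 members in hepatocyte-like nuclei (y axis) by complex (x axis), ordered within a complex, with the complex median as a red line. Filled points have both aged libraries on 1 side of both young libraries, and Atp5g3 lies lowest at -1.75.

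The lowest value belonged to Atp5g3 (chr2:73908447-73911326, minus strand), 1 of the c-ring genes printed above. It lay at 105 and 114 scaled CPM in Young against 31.0 and 34.2 in Aged. The groups were far apart and the libraries within each close, 110 ± 6.79 against 32.6 ± 2.27 (SD, n = 2 per group), a 3.36-fold difference (log2 -1.75, SE 0.29, edgeR adjusted p = 0.13). Its log2 difference stayed between -1.84 and -1.64 in every alternative run, and the adjusted p ranged from 0.00116 with DESeq2 to 0.280 with a replicate block. The other c-ring genes did not share it. Atp5g1 lay at 17.8 and 38.5 against 30.6 and 18.8, with overlapping groups (log2 -0.20, SE 0.45), and Atp5g2 at 44.5 and 44.7 against 37 and 30.4 (log2 -0.41, SE 0.30, edgeR adjusted p = 0.482). A difference between these genes was not tested.

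After Atp5g3, the smallest p among lower members belonged to 3 complex I genes and 1 complex III gene. Ndufa3 lay at 19.4 and 27.7 against 9.41 and 9.59 scaled CPM (log2 -1.31, SE 0.35, edgeR adjusted p = 0.162). Uqcrq, a small subunit of complex III, lay at 58.6 and 91.9 against 32.5 and 32.7 (log2 -1.21, SE 0.34, edgeR adjusted p = 0.164). In both genes the aged libraries agreed closely and the young ones did not. Ndufb3 lay at 83.8 and 66.5 against 39.0 and 32 (log2 -1.08, SE 0.31, edgeR adjusted p = 0.165). Ndufa11, which belongs to the membrane arm of complex I, lay at 12.2 and 18.5 against 5.43 and 6.53 (log2 -1.36, SE 0.40, edgeR adjusted p = 0.168). In all of these both aged libraries lay below both young libraries. Ndufa3 overlaps Tfpt and Ndufa11 overlaps Vmac, both on the other strand.

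Of the 9 members with higher point estimates, Sdhb, Ndufb2 and Ndufa4l2 had both aged libraries above both young ones. Sdhb (chr4:140961203-140979193, plus strand) lay at 39.6 and 33.5 against 52.5 and 59.5 scaled CPM (36.5 ± 4.3 against 56.0 ± 4.97, SD, n = 2 per group; log2 0.62, SE 0.30, edgeR adjusted p = 0.293). The other complex II genes went the other way or overlapped: Sdhd lay at 29.3 and 36.0 against 18.5 and 17.2, Sdhc at 58.4 and 61.1 against 42.9 and 46.8, and Sdha at 132 and 141 against 105 and 134. Ndufa4l2 lay at 1.04 and 2.24 against 5.90 and 2.32, so that Aged 1 made most of its difference (log2 1.29, edgeR adjusted p = 0.338). Ndufb2 lay at 17.8 and 19.5 against 27.9 and 21.6, Ndufc2 at 10.0 and 15.7 against 17.4 and 15.5, and Ndufb9 at 13.4 and 39.0 against 43.8 and 25.7. The last 2 had overlapping groups.

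Gene length went with the age values. Over the 75 members, Spearman's rho between gene length and the age log2 difference was 0.41, and between gene length and the zone difference 0.12. The 25 shortest genes (1.21 to 5.05 kb) had a median age difference of -0.81, the 25 in the middle (5.42 to 9.29 kb) -0.36 and the 25 longest (9.35 to 100 kb) -0.31, while their zone medians were -0.32, -0.36 and -0.30. By promoter letters, the 17 with an ETS core had a median age difference of -0.77 and the 45 without -0.45, the 27 with a CCAAT box -0.33 and the 35 without -0.65, and the 9 with the YY1 core -0.24 and the 53 without -0.54. With and without the NRF1 core the medians were -0.51 and -0.54. These are descriptions of chosen genes without a test.

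Among genes around the chain none passed with age in hepatocyte-like nuclei. The 51 tested assembly factor genes were lower in 26 cases (median -0.05), the 25 regulators in 15 (-0.13), the 19 citric acid cycle genes in 13 (-0.34), and the 13 mitochondrially encoded genes in 5 (0.08). Subunit genes of the NAD-dependent isocitrate dehydrogenase had similar values: Idh3g lay at 31.2 and 37.9 against 14.4 and 18.0, Idh3a at 33.8 and 30.5 against 13.2 and 17.7 and Idh3b at 53.7 and 75.4 against 39.1 and 27.1 scaled CPM, without overlap (log2 -1.09, -1.06 and -0.97, edgeR adjusted p = 0.168, 0.174 and 0.203). Higd1a, a factor of complex IV assembly, lay at 40.8 and 39.9 against 18.3 and 20.4 (log2 -1.06, edgeR adjusted p = 0.164). The complex I factor gene Foxred1 and the complex II factor gene Sdhaf2 had log2 differences of -0.88 and -0.98. Cyc1 lay at 36.9 and 79.4 against 29.1 and 29.2 and Cycs at 12.9 and 21.8 against 9.29 and 8.46, while Dmac2l overlapped at 10.3 and 6.3 against 9.76 and 10.6. Of the mitochondrially encoded genes, mt-Atp8 lay at 43.3 and 79.8 against 172 and 71.2, mt-Atp6 at 646 and 701 against 1890 and 638 and mt-Cytb at 496 and 468 against 393 and 249. Among regulators, Esrrg lay at 166 and 169 against 522 and 265 (log2 1.23, edgeR adjusted p = 0.189), while Pprc1 and Mterf1a had log2 differences of -1.35 and -1.13.

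**Figure D4:**
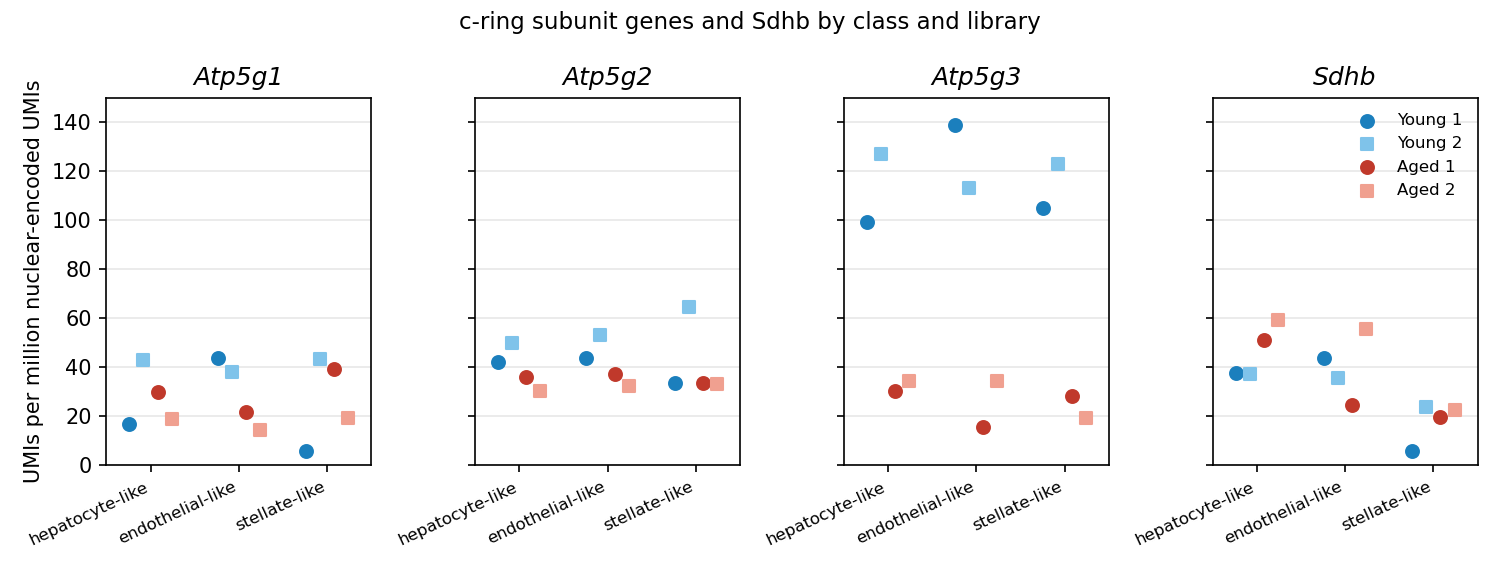
Level in CPM (y axis) of the c-ring genes Atp5g1, Atp5g2 and Atp5g3 and of Sdhb in hepatocyte-like, endothelial-like and stellate-like nuclei, 1 point per library. Only for Atp5g3 do both young libraries lie well above both aged libraries in each of these classes, and Sdhb is lowest in stellate-like nuclei.

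The age comparison was repeated in the other classes with at least 20 nuclei in every library. In endothelial-like nuclei 60 members were tested and none passed (0% of 8628 genes by edgeR), with 5 at an unadjusted p under 0.05, all lower, against 2.02% of all genes. The median was -0.55 against 0.06 over all genes, and both aged libraries lay below both young ones for 27 members, against 16.1%. In stellate-like nuclei 41 members were tested and none passed (0% of 7019 genes by edgeR), with 9 at an unadjusted p under 0.05, all lower, against 10.6%. The median was -0.56 against -0.02, with 19 members below in both aged libraries, against 19.7%. Atp5g3 lay at 139 and 114 against 16.1 and 37.5 scaled CPM in endothelial-like nuclei (19, 105, 5 and 186 UMIs; log2 -2.12, SE 0.58, edgeR adjusted p = 1.0) and at 111 and 124 against 31.7 and 20.8 in stellate-like nuclei (19, 57, 10 and 25 UMIs; log2 -2.25, SE 0.41, edgeR adjusted p = 0.265). Without Aged 2, 3 of 55 members were called lower in endothelial-like nuclei, against 6.75% of all genes, and without Young 2 the median was -0.31. In stellate-like nuclei, 2 of 64 members were called lower without Young 1 (1.59% of all genes; median -1.06) and 1 of 37 without Young 2 (1.17%; median -0.14, 21 lower). These classes are no independent evidence, since hepatocyte RNA was in all of them. The hepatocyte markers summed to 19240, 16570, 6899 and 14380 CPM in endothelial-like nuclei, beside 17310 to 24110 in hepatocyte-like nuclei, and the endothelial markers to 4080, 3117, 12550 and 2004. In stellate-like nuclei the hepatocyte markers summed to 5602, 13350, 5073 and 6603 and the stellate markers to 10220, 7727, 10110 and 10350 CPM.

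Across classes the summed level of the members was close to that of hepatocyte-like nuclei of the same library. As a ratio to them, endothelial-like nuclei stood at 1.14, 0.856, 0.984 and 0.924 and stellate-like nuclei at 0.772, 0.930, 0.819 and 0.781. Macrophage-like nuclei, with enough nuclei in Young 2, Aged 1 and Aged 2, stood at 0.913, 0.966 and 0.972, and cholangiocyte-like nuclei in the same libraries at 0.964, 1.03 and 1.10. The stellate-like and macrophage-like ratios were below 1 in every library used, and the endothelial-like and cholangiocyte-like ratios lay on both sides of 1. The abundant hepatocyte transcripts stood at 1.2, 0.703, 0.775 and 0.747 of the hepatocyte-like level in endothelial-like and at 0.795, 0.908, 0.628 and 0.853 in stellate-like nuclei. Free RNA and a class's own RNA cannot be told apart in these sums.

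Gene by gene, members fell in stellate-like against hepatocyte-like nuclei of the same libraries for 26 of 75 (edgeR with the library as a block), against 27.1% of all genes. No member rose, against 3044 of all 15849 genes. The median log2 difference was -0.51 over the members and -0.27 over all genes. The count depended on scaling: 15 fell with RLE factors, against 22.5% of all genes, and 6 with plain totals, against 19.0%, with the median of all genes at -0.10 and 0.05. Without Young 1, Young 2, Aged 1 or Aged 2 it was 19, 14, 8 or 10, against 23.8, 22.4, 19.5 or 18.9% of all genes. Sdhb lay at 4.60, 20, 17.7 and 21.0 scaled CPM in stellate-like and 46.2, 37.3, 59.3 and 66.6 in hepatocyte-like nuclei, lower in every library without overlap (log2 -1.61, SE 0.29, edgeR adjusted p = 0.00058). Next were Ndufs3 at -1.24, Ndufa8 at -1.20, Cox7b at -1.15 and Ndufb3 at -1.11, all lower in 4 of 4 libraries. In macrophage-like nuclei 8 members fell, against 16.8% of all genes: the complex V genes Atp5d and Atp5j (log2 -1.28 and -1.17), Atp5c1 and Atp5b (-0.91 and -0.67), the complex I genes Ndufb3 and Ndufs3 (-1.27 and -0.96), Cox7a2 (-0.95) and Uqcrc2 (-0.90). In cholangiocyte-like nuclei 5 fell, against 15.0%: Ndufs3, Ndufb3, Sdhb, Ndufs1 and Ndufs4 at -1.55, -1.54, -1.30, -1.01 and -0.81. In mesothelial-like nuclei 4 fell, against 11.3%, on few UMIs: Ndufs3 with 8, Sdhb with 2, Ndufb5 with 1 and Ndufa12 with 0, which is at least 2.26-fold lower against a floor of 3 counts over the group. In endothelial-like nuclei no member passed in either direction, while 1231 of all 15699 genes were called higher and 5 (0.0318%) lower. The member median was -0.33 against -0.16 over all genes. Before adjustment, edgeR's p was below 0.05 for 5 members, against 3486 of all 15699 genes in either direction. A further fit took nuclei whose share of the abundant hepatocyte transcripts was under 50% of the library's hepatocyte-like median. Young 1 had 0 of these, and Young 2, Aged 1 and Aged 2 had 56, 68 and 113. There the member median was -0.65, against -0.25 over all genes, with edgeR's unadjusted p below 0.05 for 10 members. With plain totals over all endothelial-like nuclei the member median was -0.08, against 0.07 over all genes, with 0 such members. The macrophage count was 8, 1 or 0 without Young 2, Aged 1 or Aged 2, against 19.4, 8.03 or 8.85% of all genes. In the same fits the cholangiocyte count was 0, 1 or 0, against 11.5, 11.8 or 9.15%. The mesothelial count was 2, 1 or 0 without Young 1, Young 2 or Aged 2, against 8.8, 8.74 or 2.49%. With plain totals 1 member fell in macrophage-like, none in cholangiocyte-like and 2 in mesothelial-like nuclei, against 9.98, 8.26 and 7.23%. In mesothelial-like nuclei 2 others then rose, against 1605 of all 13735 genes.

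With TMM scaling no member was called higher outside hepatocyte-like nuclei. Of all genes, 1231 of 15699 were called higher in endothelial-like, 3044 of 15849 in stellate-like and 2330 of 15365 in macrophage-like nuclei. In cholangiocyte-like nuclei 1296 of 14351 were, and in mesothelial-like nuclei 1214 of 13735. Cox8a, a small complex IV subunit, was the only member whose CPM outside exceeded the hepatocyte-like value in all 4 libraries at 20 CPM or more. It lay at 38.8, 86.1, 64.4 and 30.1 in stellate-like against 21.4, 74.7, 44.0 and 26.9 CPM. After TMM scaling the difference was 0.05 on the log2 scale (SE 0.21, edgeR adjusted p = 0.990), so it rests on the scaling.

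Within hepatocyte-like nuclei the level of the members went with the share of mitochondrially encoded UMIs. From nuclei with under 0.5% to nuclei with 2 to 5% of such UMIs, the members' sum went from 2674 to 3479 CPM in Young 1, 3662 to 5639 in Young 2, 2276 to 3184 in Aged 1 and 2274 to 2803 in Aged 2. The ratio was 1.30, 1.54, 1.40 and 1.23 (1.37 ± 0.133, SD, n = 4), and 1.36 in nuclei with at least 1000 UMIs. Barcodes over 5% reached 4474, 5788, 3887 and 3170 CPM. They had been set aside before clustering, so they may hold any class and doublets and are not hepatocyte-like nuclei alone. By complex the mean ratio was 1.27 for complex I, 1.16 for complex II, 1.53 for complex III, 1.65 for complex IV and 1.38 for complex V. The same step gave 2.16 for ribosomal protein genes and 3.35 for the abundant hepatocyte transcripts, but 0.934 for assembly factors, 0.974 for citric acid cycle genes and 1.01 for the nuclear RNA Malat1.

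**Figure D5:**
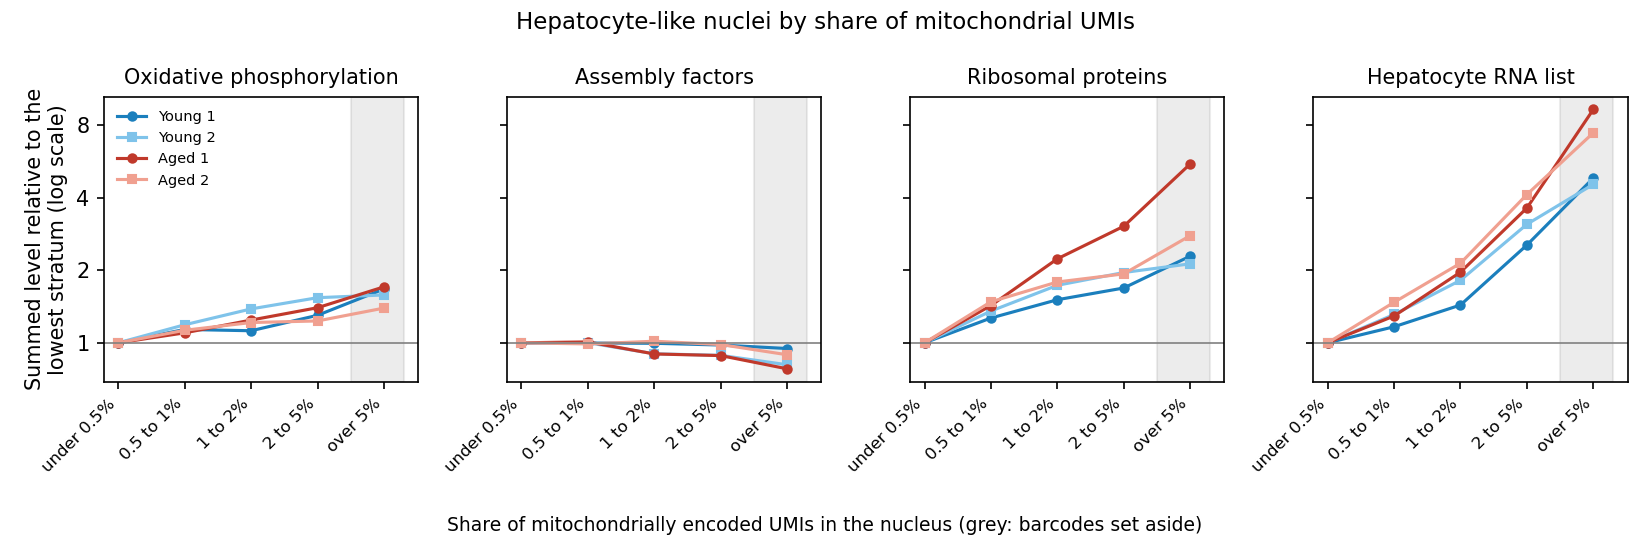
Summed level of 4 gene lists in hepatocyte-like nuclei, relative to the nuclei with under 0.5% mitochondrial UMIs (y axis, log scale), over strata of the mitochondrial share (x axis), 1 line per library. The members lie between the flat assembly factors and the steep hepatocyte RNA list.

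Of the 75 members 52 were higher in the 2 to 5% nuclei of all 4 libraries, against 10.4% of the 15740 genes tested with age, and 3 were lower in all 4, against 16.1%. The median ratio was 1.48 over the members and 0.983 over those genes. The ratio was largest for Ndufa1 at 3.26, Ndufb9 at 2.56, Atp5e at 2.55 and Uqcr11 at 2.43, all genes of small subunits. The 3 lower members were Ndufa4l2 at 0.487, Ndufb3 at 0.882 and Ndufs4 at 0.894, which are also among the complex I genes with no lower point estimate in the pericentral part. The ratio of Ndufa4l2 rests on 0, 1, 7 and 3 UMIs in the 2 to 5% nuclei of Young 1, Young 2, Aged 1 and Aged 2. The 25 shortest members had a median ratio of 1.60 and the 25 longest 1.22 (Spearman's rho of gene length and ratio -0.49, n = 75). Age point estimates were also lower within each stratum: fitted alone, nuclei with under 0.5, 0.5 to 1, 1 to 2 and 2 to 5% gave member medians of -0.42, -0.51, -0.55 and -0.62. No member passed the threshold by edgeR. Of 75, 74, 72 and 73 members tested, 18, 15, 14 and 14 had an unadjusted p under 0.05. In the fit of all hepatocyte-like nuclei 20.2% of all genes had such a p.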

How the data were processed

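Single nuclei of 4 liver libraries were analysed from the deposited UMI counts per gene and barcode, which the authors made with Cell Ranger 7.1.0 on mm10, per the submitters' processing notes. Neither the annotation release nor the handling of introns and strand is stated in the labels or notes. The members and lists were chosen with earlier results of these data known, and the ribosomal protein list and the added alternatives after seeing the data.

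Barcodes with at least 500 UMIs, 300 genes and at most 5% mitochondrial UMIs were kept. Scrublet's automatic threshold (scanpy 1.11.5) marked too few doublets to have worked, so the highest scores were removed at 0.8% per 1000 barcodes. Nuclei were clustered on 2000 variable genes without the members (30 components, 20 neighbours, resolution 1) and named by fixed markers. Counts were summed per library and class (at least 20 nuclei) or zone part and tested with edgeR 4.0.16 (quasi-likelihood, TMM, R 4.3.3), with Benjamini-Hochberg adjustment over all genes tested. DESeq2 1.42.0, other scalings, no filter on low counts, mitochondrial and UMI limits and leaving out each library were alternatives. On data simulated for the age test, 45 of 200 genes changed 2-fold and 198 of 200 changed 4-fold were recovered, and for the zone test 152 of 200 changed 1.5-fold. Each simulation gave all genes 1 assumed dispersion, not estimated from these libraries, and changed only the more abundant genes. It checks the procedure and cannot give the share of real changes that these libraries would show. Counting error and free RNA are not separated from biological spread.

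Named genes were the 3 highest members per complex, members past the threshold (the 5 largest by fold where over 10), the 5 smallest p in each direction of the age test, members highest outside hepatocyte-like nuclei at 20 CPM or more, the 3 smallest p of each list and the members next to the UMI minimum. Gene positions are from GENCODE on mm10. A comparison of replicate libraries found them far apart (chi-square per degree of freedom 80.3 for Young and 127 for Aged), so none was counted as a copy.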

Additional observations from a re-analysis of the deposited data

How the results depend on the processing

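With age, the number of members called in hepatocyte-like nuclei was 0 and became 3 without a filter on low counts (7.73% of all genes called) and 1 with DESeq2 (6.85%). When 1 library was left out, the member median there was -0.72 to -0.23. In endothelial-like nuclei this median was -0.68 to -0.31, and in stellate-like nuclei -1.06 to -0.14. Without a filter 2 members were called in stellate-like nuclei, against 1.15% of all genes. Ndufb9 reversed to -0.16 without Young 1 and to -0.01 without Aged 1 (range over libraries left out -0.16 to 1.41), and Ndufc2 to -0.08 in nuclei with 2 to 5% mitochondrial UMIs. The zone count of 32 was 19 with at most 1% and 16 with under 0.5% mitochondrial UMIs, against 9.37 and 8.89% of all genes. With 1 library left out it was 13 to 22, against 7.26 to 7.8%. For classes, the stellate-like count of 26 was 15 with RLE factors and 6 with plain totals, against 22.5 and 19.0% of all genes. It was 14 with hepatocyte RNA under 50% of the hepatocyte-like median, against 19.2%, and 11 with at most 1% mitochondrial UMIs, against 21.5%. With 1 library left out it was 8 to 19, against 18.9 to 23.8%. The macrophage-like count of 8 was 1 with plain totals and 13 without a filter, against 9.98 and 11.8% of all genes. With 1 library left out it was 0 to 8, against 8.03 to 19.4%. The cholangiocyte-like count of 5 was 1 with RLE factors and 0 with plain totals, against 12.2 and 8.26% of all genes. With 1 library left out it was 0 to 1, against 9.15 to 11.8%, and the mesothelial-like count of 4 was 0 to 2, against 2.49 to 8.8%. The cause was not tested. A further tally did not cover every member in every fit, since the counts above changed by more. In it 277 settings kept direction and side, 33 moved, 10 passed the threshold only in the alternative, 8 no longer passed and 3 reversed. It gives no rate over the members.

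With the replicate number as a block, 0 members were called with age in hepatocyte-like, endothelial-like and stellate-like nuclei (medians -0.49, -0.54 and -0.55), and 2 of all genes against 4 without it in hepatocyte-like nuclei. No member was called without the block either, so it had no call of a member to end. Same-numbered libraries deviated in opposite directions (correlation -0.201 over 15740 genes), and a crossed pairing also called 0 members in each, with 7 genes in all in hepatocyte-like nuclei. A limit of hepatocyte RNA at 25% of the hepatocyte-like median was not run, since it left too few nuclei. The limit at 50% of that median, the limit of under 0.5% mitochondrial UMIs and the strata were chosen after seeing the data. The smallest p an exact permutation of 2 against 2 libraries can give is 0.333, so single values cannot pass such a test.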

Other observations

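Lists kept beside the members gave these age values in hepatocyte-like nuclei, none past the threshold. Of 5 RNAs that stay in the nucleus 2 were lower and 3 higher (median log2 difference 0.69). Kcnq1ot1 lay at 180 and 155 scaled CPM in Young against 256 and 283 in Aged, Meg3 at 31.3 and 13.8 against 20.7 and 61.2, and Xist at 6.81 and 1.08 against 1.69 and 1.22. Malat1, named after its values were seen, lay at 17600 and 21900 against 49900 and 35800. Of 78 tested ribosomal protein genes 53 were lower (median -0.19), and of the 12 abundant hepatocyte transcripts 8 were lower (median -0.19). Serpina1c lay at 809 and 1130 against 399 and 386, Mup20 at 713 and 2550 against 60.7 and 505, and Fgb at 208 and 450 against 1700 and 472.

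Of 10 pericentral landmark genes 7 were lower (median -0.44). Glul, the glutamine synthetase of the pericentral rim, lay at 337 and 277 against 120 and 193 scaled CPM, and Oat, an ornithine aminotransferase, at 122 and 81.8 against 59.9 and 36.3. Cyp1a2 lay at 58.4 and 85.3 against 8.01 and 38.4. Of 10 periportal landmark genes 5 were lower (median -0.13). Etnppl lay at 107 and 98.2 against 30.7 and 44.2, and Hsd17b13, a lipid droplet protein, at 90.6 and 152 against 232 and 274. In each of these landmark genes the groups did not overlap. Ctsc overlapped, at 31.5 and 28.6 against 229 and 29.7.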
